A study of Mus musculus with 2 samples.

Results

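Mir193b, Mir365-1 and Mir365-2 are 3 of the 2202 microRNA genes counted in mouse heart, and they were taken by their identifiers and not by their values. Mir193b and Mir365-1 are neighbours in a cluster on chromosome 16, and Mir365-2 is a second copy of the miR-365 gene on chromosome 11. Small RNA was sequenced from heart tissue of 2 males aged 2 months. The strain was B6CASTF1/J, the first-generation (F1) hybrid between C57BL/6J and CAST/EiJ, with no treatment or other genotype in the labels. The libraries form 1 group of 2 replicates, described in the labels as different males although both carry 1 donor identifier, so the labels do not settle how separate they are.

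A microRNA gene is transcribed as a longer RNA that is cut to a hairpin, and each side, or arm, of the hairpin can give a mature strand of little over 20 bases. The mature strand binds messenger RNAs mainly through its seed, bases 2 to 8 from the 5′ end, and lowers their translation and stability. The miR-193b and miR-365 cluster is known for its high expression in brown fat, where it was described as promoting brown fat development and holding back muscle genes, and miR-193b is also studied as a brake on cell growth. These are background statements and were not measured here.

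The mature sequences are shown first because they decide which reads can be given to which gene. They were taken from RefSeq on GRCm38.p6, in which all 3 genes and Mir193a were matched, and the seed is in capitals. Mir193a is the paralog of Mir193b and lies beside Mir365-2.
miR-193b-3p: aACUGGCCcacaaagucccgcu
miR-193a-3p: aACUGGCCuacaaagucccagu
miR-193b-5p: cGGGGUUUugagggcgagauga
miR-193a-5p: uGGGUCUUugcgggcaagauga
miR-365-3p, from both Mir365 genes: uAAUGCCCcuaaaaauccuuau
miR-365-1-5p: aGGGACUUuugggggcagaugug
miR-365-2-5p: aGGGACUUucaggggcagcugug

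The 3p strands of miR-193b and miR-193a share the seed ACUGGCC and differ at 3 of 22 bases, C9U, G20A and C21G, with the base of miR-193b first and positions counted from the 5′ end. Their 5p strands differ at 5 of 22 bases and do not share a seed. Among 1678 mature entries of the 1018 genes matched by symbol, the seed ACUGGCC occurred in these 2 genes alone, and the miR-365-3p seed AAUGCCC occurred in Mir365-1 and Mir365-2 alone. The 3p strand of the Mir365 genes is identical over its 22 bases. Their 5p strands share the seed GGGACUU and differ at 3 of 23 bases, U10C, G11A and A19C, with the base of miR-365-1-5p first.

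The hairpins show how far the identity of the Mir365 genes reaches. In the hairpins of Mir365-1 and Mir365-2 the capitals mark the longest stretch that both hold. In the hairpin of Mir193b they mark its mature arms.
Mir193b, chr16:13449523-13449601, plus strand of mm10: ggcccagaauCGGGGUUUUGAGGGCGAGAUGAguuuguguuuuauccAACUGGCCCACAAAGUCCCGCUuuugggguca
Mir365-1, chr16:13453840-13453926, plus strand: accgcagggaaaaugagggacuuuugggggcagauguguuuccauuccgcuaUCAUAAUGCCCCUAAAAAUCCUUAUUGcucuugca
Mir365-2, chr11:79726400-79726511, plus strand: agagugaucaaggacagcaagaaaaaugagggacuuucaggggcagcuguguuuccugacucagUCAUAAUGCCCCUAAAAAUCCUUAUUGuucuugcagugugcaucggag

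The shared stretch of the Mir365 hairpins is 27 bases long and spans bases 53 to 79 of Mir365-1, which hold the whole 3p strand at bases 56 to 77. In the deposited files a read that fits several places in the genome is counted in a row of its own and in no gene, so a read inside this stretch adds to neither Mir365-1 nor Mir365-2. The counts of these genes are therefore those of reads that reach beyond the stretch or lie outside it, such as reads of the 5p strand, which is in no other annotated hairpin. The files do not give reads per arm. The levels below are not levels of miR-365-3p. Mir193b shares at most 14 bases with any other microRNA hairpin (Mir1941), and both of its arms are in no other hairpin, so its counts have no such gap among annotated hairpins. The genome outside the hairpins was not searched.

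**Figure D1:**
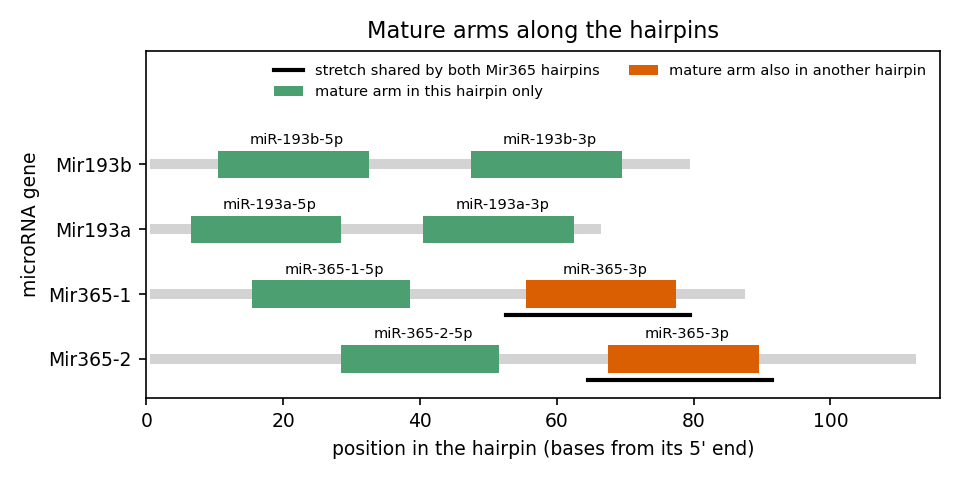
Hairpins of the 4 genes drawn to scale along their length in bases from the 5′ end (x axis), with mature arms as boxes and the stretch common to both Mir365 hairpins as a black line. The 22-base 3p arm of both Mir365 hairpins lies inside the 27-base shared stretch, while every other arm is in its own hairpin only.

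All 3 genes lie outside genes on their own strand in GENCODE M21. Mir193b and Mir365-1 are 4238 bases apart, and both overlap the span of Gm15738, a gene on the opposite strand. Mir365-2 lies 14365 bases after Mir193a on chromosome 11 (Mir193a at 79711969 to 79712034), with no gene on the opposite strand. No read was counted on the strand opposite to any of these genes in either library, and the column without regard to strand held the same counts.

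The libraries held 10362589 reads in replicate 1 and 10483233 in replicate 2, of which 3650782 and 3810675 were counted on the strand of a microRNA gene. Reads that fit several places numbered 4968988 and 4868319, which was 1.36 and 1.28 for each counted gene read. Levels are given in CPM, counts per 1000000 gene reads of a library, and 3 counts correspond to 0.822 CPM in the first library and 0.787 CPM in the second. Intervals are exact Clopper-Pearson 95% intervals of a library and cover counting error only, since PCR copies of a molecule cannot be told apart. As a check of the tissue, the heart muscle genes Mir208a and Mir499 were at 2797 CPM ± 2077 and 2554 CPM ± 66.2, and Mir208b at 71.1 CPM ± 65.7 (SD, n = 2 each). In tissue, fewer cells of a type and less RNA per cell cannot be told apart.

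Mir193b was counted at a moderate level in both libraries, while the Mir365 genes were near the limit of what the depth can show. Mir193b (ENSMUSG00000076972.2) received 306 reads in replicate 1 and 522 in replicate 2. This was 83.8 CPM (interval 74.7 to 93.8) and 137 CPM (125 to 149), a mean of 110 CPM ± 37.6 (SD, n = 2). The intervals of the libraries did not overlap, and replicate 2 was the higher. Mir193b stood at rank 142 of 2202 genes by mean CPM, at 146 in replicate 1 and 130 in replicate 2, and held 0.0110% of the gene counts. A gene was called detected where neither library was below 2 CPM, and the median of the 337 detected genes was 54.1 CPM.

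Mir365-1 (ENSMUSG00000065449.1) had 4 counts in replicate 1 and 5 in replicate 2, which was 1.10 CPM (0.299 to 2.81) and 1.31 CPM (0.426 to 3.06), a mean of 1.20 CPM ± 0.153 (SD, n = 2). Mir365-2 (ENSMUSG00000065489.1) had 0 counts in replicate 1 (interval 0 to 1.01 CPM, with the floor of 3 counts at 0.822 CPM) and 5 in replicate 2, or 1.31 CPM (0.426 to 3.06). Its mean was 0.656 CPM ± 0.928 (SD, n = 2). Both genes were below the detection limit of 2 CPM in each library, with ranks of 429 and 498. Of the 2202 genes, 1480 had no count in either library, so even these few reads placed both genes among the 722 that had any.

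**Figure D2:**
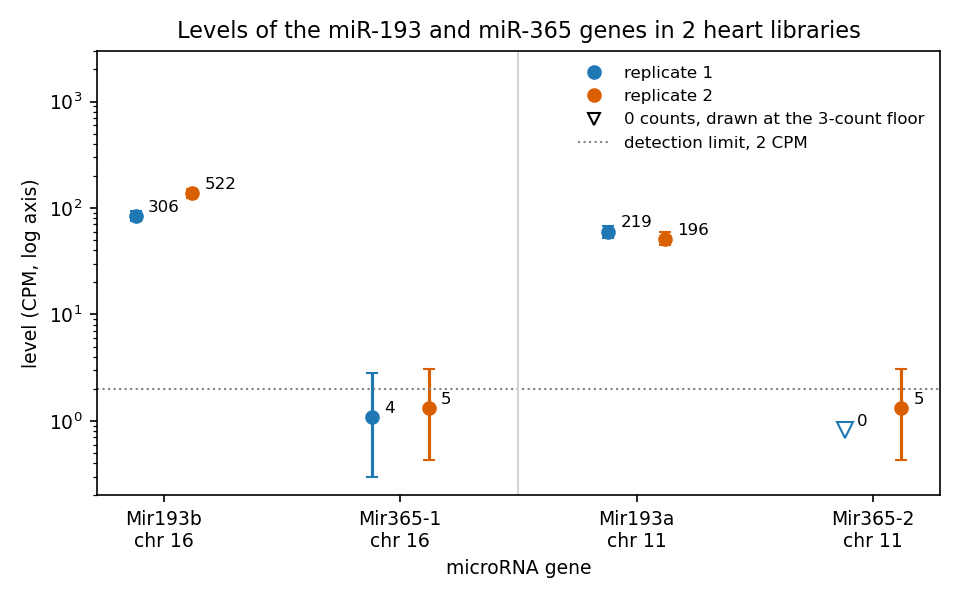
Level in CPM on a log axis (y) of each gene (x) in each library, with exact 95% intervals of the counts and the count printed beside each point. Mir193b, with 306 and 522 counts, and its paralog Mir193a, with 219 and 196, lie far above the detection limit of 2 CPM, and the Mir365 genes, with 0 to 5 counts, lie below it.

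**Figure D3:**
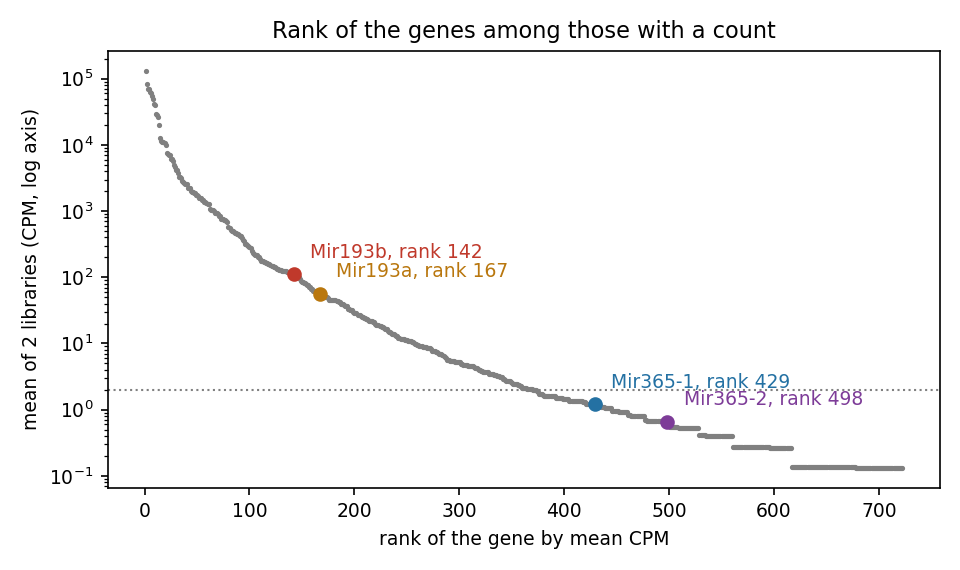
Mean CPM of the 2 libraries on a log axis (y) against the rank of the gene (x) for the 722 genes with a count. Mir193b at rank 142 and Mir193a at rank 167 lie on its upper part, and Mir365-1 at rank 429 and Mir365-2 at rank 498 lie on the steps made by a few counts, with the detection limit of 2 CPM as a dotted line.

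Within the chromosome 16 cluster, Mir193b exceeded Mir365-1 in both libraries. The counts of Mir193b were 76.5 times those of Mir365-1 in replicate 1 (interval 29.6 to 283) and 104 times in replicate 2 (44.5 to 323). The mean log2 ratio of CPM + 0.5 was 5.98 ± 0.37 (SD, n = 2), and it was 6.12 when each level was divided by hairpin length, 79 bases for Mir193b and 87 for Mir365-1. Mir193b made up 98.7% of the counts of the 3 genes in replicate 1 and 98.1% in replicate 2. An exact permutation test that flips signs over 2 libraries cannot give a two-sided p below 0.5, and ratios within a library were left untested. Reads of the 3p strand that lie inside the shared stretch are missing from Mir365-1, so the ratio does not rank miR-193b against miR-365.

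The order of the Mir365 genes was not detectable at this depth. Mir365-1 held 4 of their 4 counts in replicate 1 (share interval 39.8 to 100%) and 5 of 10 in replicate 2 (18.7 to 81.3%), and both intervals include an even split. Added together they had 4 and 10 counts, or 1.10 and 2.62 CPM, a mean of 1.86 CPM ± 1.08 (SD, n = 2). Mir193b had 76.5 times this sum in replicate 1 and 52.2 times in replicate 2. Against Mir365-2 alone, Mir193b was at 102 times the floor of 3 counts in replicate 1, where the lower limit of the exact interval of the ratio was 82.5. In replicate 2 it was 104 times higher (interval 44.5 to 323).

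The paralog pair on chromosome 11 had the same order of levels. Mir193a, whose 3p strand has the seed of miR-193b-3p, had 219 counts in replicate 1 and 196 in replicate 2, or 60.0 CPM (52.3 to 68.5) and 51.4 CPM (44.5 to 59.2), a mean of 55.7 CPM ± 6.05 (SD, n = 2). Against Mir365-2 it was at 73 times the floor of 3 counts in replicate 1, with a lower limit of 58.9 for the ratio, and 39.2 times higher in replicate 2 (interval 16.5 to 122). In each cluster the miR-193 gene had at least 196 counts in a library, and the miR-365 gene, whose 3p strand is shared between the clusters, had at most 5. Reads inside the shared stretch are missing from both Mir365 genes, so the chromosome 11 pair is not an independent repeat. Its ratio does not rank miR-193a against miR-365.

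The counts of Mir193b exceeded those of its paralog in both libraries, by different amounts. Whether strands of different sequence enter a library equally well was not measured. Mir193b made up 58.3% of the counts of the 2 miR-193 genes in replicate 1 (interval 53.9 to 62.5) and 72.7% in replicate 2 (69.3 to 75.9). The intervals did not overlap with each other and lay above an even split. The mean log2 ratio of Mir193b to Mir193a was 0.94 ± 0.65 (SD, n = 2), with 0.48 in replicate 1 and 1.40 in replicate 2, and the mean was 0.68 per hairpin length. The 2 genes together had 525 and 718 counts, or 144 and 188 CPM. These counts pool both arms of each hairpin, and only the 3p strands carry the seed ACUGGCC, so the sum is not a level of that seed.

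Between the libraries, Mir193b was higher in replicate 2 and Mir193a did not pass the test. The log2 ratio of replicate 2 over replicate 1 was 0.70 for Mir193b (95% interval 0.49 to 0.90, 1.62 times, exact binomial test against edgeR's TMM library sizes, Benjamini-Hochberg adjusted p = 4.105e-11). For Mir193a it was -0.24 (-0.52 to 0.05, adjusted p = 0.1528 in the same exact binomial test). Of 320 genes tested, 206 passed (64.4%) and 98 passed with the higher level in replicate 2 (30.6%), so a call of this kind is common between these libraries. The median absolute log2 ratio of the tested genes was 0.44, and 109 of them had a larger one than Mir193b. The test compares 2 libraries with counting noise, not conditions. Mir365-1 and Mir365-2 did not reach the low-count filter. Without that filter their adjusted p was 0.9465 and 0.0981 in the exact binomial test.

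**Figure D4:**
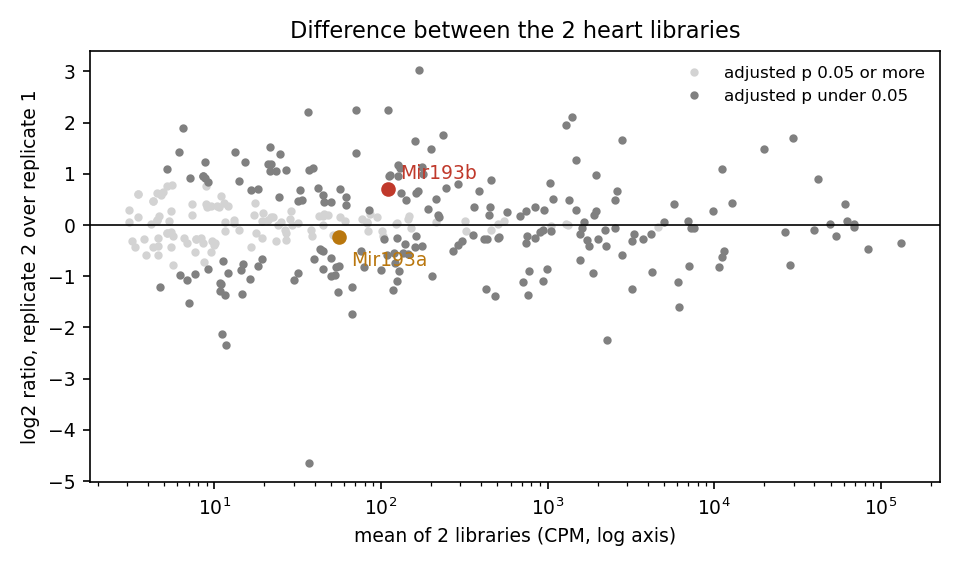
Log2 ratio of replicate 2 over replicate 1 (y) against mean CPM on a log axis (x) for the 320 tested genes, with darker points for the 206 at an adjusted p under 0.05. Mir193b lies at 0.70 and Mir193a at -0.24, both inside the cloud of the other genes.

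The cluster was set beside other neighbouring microRNA genes, defined as genes next to each other on a strand, with a gap of at most 10 kb and the higher gene detected. Among 141 such pairs the absolute log2 ratio of CPM + 0.5, averaged over the libraries, had a median of 3.88 (quartiles 1.87 and 5.53). The pair of Mir193b and Mir365-1, at 5.98, was in place 33 from the top. Both genes were detected in 79 of the 141 pairs, and Mir365-1 was not detected. Where the lower gene is near 0, the ratio depends mainly on the level of the higher gene and on the added 0.5 CPM. The place therefore partly ranks the level of the higher gene. In 49 pairs the lower gene shared at least 20 bases with a hairpin elsewhere, as Mir365-1 does, and their median was 5.10, while it was 3.34 in the other 92 pairs. Of the 32 pairs with a larger difference, 17 had such a lower gene. These are descriptions, since pairs share genes and libraries, and the part of the shared stretches in the differences was not tested.

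**Figure D5:**
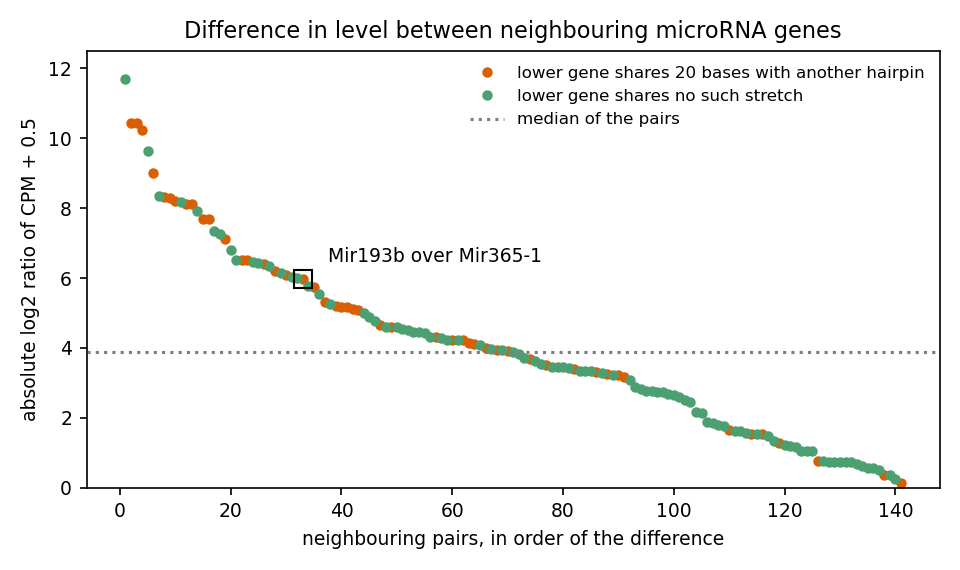
Absolute log2 ratio of CPM + 0.5 (y) of the 141 neighbouring pairs in order of size (x), coloured by whether the lower gene shares at least 20 bases with another hairpin, with the median of 3.88 as a dotted line. The boxed pair of Mir193b and Mir365-1, at 5.98, lies above the upper quartile of 5.53.

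Genes built like the Mir365 copies, with 1 annotated mature arm found in another hairpin and the other arm in its own hairpin only, numbered 61 of the 1018 matched genes. Of these, 35 were detected (57.4%) and 11 had no count, and their median level was 8.95 CPM. Mir365-1 and Mir365-2 were in places 43 and 44 of the 61. The genes with every annotated arm in a single place, such as Mir193b, numbered 907, of which 262 were detected (28.9%). The 50 genes with every arm in several places had 6 detected (12%). More of the genes with 1 such arm were detected than not, and the Mir365 copies were below the limit. Which arm gave the counts of the 61 genes is not known. The part of the shared arm in these levels was not tested.

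The genes nearest in level were found by the distance of log2(CPM + 0.5) over the 2 libraries. For Mir193b these were Mir152 with 277 and 567 counts (distance 0.19), Mir1249 with 277 and 576 (0.20) and Mir154 with 313 and 639 (0.29), each higher in replicate 2. For Mir365-1 the nearest was Mir452 with the same 4 and 5 counts, followed by 4 genes at a distance of 0.20, Mir1932 and Mir3086 among them. For Mir365-2 they were Mir3095 and Mir7073, with the same 0 and 5 counts, and then Mir3060 with 0 and 6. A likeness over 2 libraries is weak, and at a few counts it says little more than that the counts are small.

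Other microRNA genes linked to brown fat were counted over a wide range. A list of 28 genes named for a role in brown fat held the 3 genes above and 25 others, of which 23 were detected. Including the 3 genes, 24 of 28 were detected, against 15.3% of all 2202 genes, and 15 of the 28 had a higher mean than Mir193b. The median log2(CPM + 1) of the list was 7.23, beside 5.78 for all detected genes and 0 for all genes. The list was chosen with earlier results of these data known, and 1480 of the 2202 genes had no count in either library. The higher share and median of the list are therefore no result about brown fat genes in heart. The most counted were Mir378a at 132638 CPM ± 21763, Mir26b at 28348 CPM ± 10514 and Mir93 at 6052 CPM ± 3107 (SD, n = 2 each). Mir378a is known from mitochondrial metabolism, and Mir93 is in the group described as restraining. Of the list, 16 genes share at least 20 bases with another hairpin.

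Of the 14 other genes described as promoting brown fat, 12 were detected, with means from 0.131 to 132638 CPM and a median of 101 CPM. Mir455, known to promote brown fat commitment, was at 844 and 1050 CPM in the 2 libraries, and Mir193a is among these 14. All 11 genes described as restraining it were detected, from 2.15 to 6052 CPM with a median of 1034 CPM. Among them Mir27b was at 4874 and 6568 CPM and Mir133a-2 at 2.19 and 2.10 CPM. Mir27b and Mir133a-2 each share at least 20 bases with another hairpin, and so do other genes of both groups. Mir378a, Mir26a-1 and Mir30c-1 are among the promoting ones that do, and Mir27a and Mir125b-1 among the restraining ones. A read that lies wholly inside such a stretch is missing from their counts and from the ranges and medians above. Where the stretches lie was not worked out for these genes, and 20 bases can be shorter than a mature strand. How much is missing is therefore not known, and the medians do not rank the groups. In the exact binomial test, adjusted over all genes, 9 of the 22 other genes tested were higher in replicate 2 and 7 were lower. Over all tested genes 30.6% were higher and 33.8% lower, so calls in both directions are common and nothing is read from those of the list. Many of these genes are expressed in muscle, vessels and blood cells too, and the counts do not locate them in fat cells.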

How the data were processed

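Small RNA reads of 2 heart libraries were analysed. The authors deposited raw read counts per microRNA gene on mm10 with GENCODE M21, per the text deposited with each file. The aligner and counting tool are not given in the sources used here. Of the 3 count columns, that of reads in the direction of the gene gave the main values, that without strand was an alternative, and that of the reverse direction was used as a check. Rows that name no gene (unmapped, several places, no feature) held 64.8% and 63.6% of the reads and stayed out of library sizes.

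CPM, ratios of CPM + 0.5 and exact intervals were computed with Python 3.11.15 and scipy 1.17.1. Each gene was compared between libraries by an exact binomial test, two-sided, against TMM library sizes (edgeR 4.0.16, R 4.3.3, genes past filterByExpr). Benjamini-Hochberg adjustment was over all genes, with a threshold of 0.05. The check on simulated counts used counting noise only, which the test assumes, so it does not show how the test behaves on these libraries. DESeq2 1.42.0 size factors were an alternative. The genes and lists were chosen with earlier results of these data known. Named are the 3 genes, Mir193a, the 3 genes nearest in level to each, and the 3 most counted genes of the brown fat list. Mir455, Mir27b and Mir133a-2 were added after their values were seen. Mir208a, Mir208b and Mir499 were named as heart muscle genes. Mir26a-1, Mir30c-1, Mir27a and Mir125b-1 were named as examples of list genes with a shared stretch. Mir1941 was named for the stretch it shares with Mir193b.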

Additional observations from a re-analysis of the deposited data

How the results depend on the processing

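Of 49 values recomputed with both replicates, 41 moved by less than the spread between the replicates, or for tests and counts kept their side of the threshold or stayed within 1.5 times, and none turned in direction. The 18 values without a replicate say nothing of stability, since with 2 replicates the mean always moves by less than the SD. Mir365-2 was at 0 without replicate 2 and 1.31 CPM without replicate 1. With all reads as the denominator, the mean level fell to 39.7 for Mir193b, 0.431 for Mir365-1, 0.238 for Mir365-2 and 19.9 for Mir193a per 1000000 reads. The SD of Mir365-2 exceeds its mean, so no fall could pass it. Without regard to strand it was 1.56 CPM for Mir365-1 and 72.3 CPM for Mir193a. Without the most counted gene in the denominator it was 1.39 CPM for Mir365-1 and 64.3 CPM for Mir193a, and with all uniquely mapped reads 49.1 for Mir193a. These follow from the size of the denominator, since the counts are the same. The log2 ratio of Mir193b to Mir365-1 lay between 5.62 (pseudocount of 1 CPM) and 6.25 (without replicate 1), and that of Mir193b to Mir193a was 1.40 without replicate 1 and 0.48 without replicate 2. Mir193b was higher in replicate 2 under the 5 other scalings, filters and strand settings, with log2 ratios from 0.68 to 0.77. Dividing by hairpin length was chosen after the data were seen. The mature arms are of like length in all these hairpins, so the division is not a correction of the levels. No paired analysis was possible because there is 1 group. At 5 counts or fewer the depth sets no order of the Mir365 genes.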
